A study of Oryza sativa with 20 samples.

Results

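The HSP90 genes of rice were followed through a brief heat shock and the recovery from it, in shoots of 2-week-old wild-type plants (Oryza sativa). The members are 7 gene IDs of the deposited expression table, out of 37248. They were taken by ID, with earlier results of these data known. Of these, 5 are listed as cytosolic HSP90, also called HSP81, and 2 as HSP90 of organelles. Heated plants were turned upside down with the shoots in water at 42 °C for 10 min, and control plants were treated alike in water at 22 °C; both then stood at 30 °C. Shoots were sampled 10 min, 20 min, 1 h, 2 h and 10 h after immersion began. Each time had 1 heated and 1 control group, each of 2 libraries made from 3 shoots per library. Recovery was thus warmer than the control bath and cooler than the hot one, so a response of the controls to 22 °C and to the later warming cannot be told apart from an effect of heat. In RNA of whole shoots, a change in cell make-up and a change of RNA per cell cannot be told apart either.

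HSP90 proteins are ATP-driven chaperones that work as dimers. The cytosolic forms take over partly folded client proteins, among them kinases, receptors and transcription factors, from HSP70, and keep heat stress transcription factors inactive in unstressed cells. Plants also have HSP90 proteins in plastids, mitochondria and the endoplasmic reticulum, which serve protein folding and import there. Co-chaperones such as HOP, which links HSP70 to HSP90, AHA1, which speeds up the ATPase, and SGT1 and RAR1, which act in immune receptor assembly, steer the cycle.

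Expression was given as FPKM, fragments scaled by transcript length and library size, with 1 value per group that the authors made from both libraries. No spread between libraries can therefore be given beside any level, and depth per library is unknown. A change is called where the authors' deposited table gave a q value under 0.05, and those q values carry 2 decimals. The log2 ratio is that of heated over control shoots on the log2(FPKM + 1) scale, where changes of low values come out too small; folds are plain ratios of FPKM. Rows with the same values count once, as 1 record, and the 24219 records whose 10 groups averaged 1 FPKM or more were compared. Of the 7 members 6 were among them, and OS09G0482400 was listed at 0 FPKM in every group. OS04G0107900 passed this filter only through its heated values. The IDs are not paired with gene names in the sources used here, so the placement in cytosol or organelle is that of the member list, and no role within the family is given to single members. A list of 5 leaf markers (Rubisco small subunits and chlorophyll-binding proteins) spanned 800.2 to 10792.1 FPKM in heated and 995.3 to 11533.9 FPKM in control shoots at 10 min. Up to 2 h 0 of them were called in the authors' deposited table. Of all records, 1.49% to 10.9% were called higher and 2.16% to 8.12% lower at these times. With 5 IDs, a count of 0 lies near those shares. At 10 h the authors' deposited table called 1 of the 5 lower, at 106.29 FPKM in heated and 210.94 FPKM in control shoots; another had a log2 ratio of -0.69 (q printed as 0.05) and the other three had ratios of 0.56 to 1.14 without a call. Of all records, 1.64% were called lower at 10 h. The marker called lower and the one at -0.69 also fell with time in controls. They had 11294.1 and 9647.39 FPKM at 10 min and 210.94 and 36.29 FPKM at 10 h. The other markers were not lower in controls at 10 h than at 10 min. Whether these marker differences play a part in the 10 h values of the members was not tested.

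OS04G0107900, listed as cytosolic, was barely detected in control shoots and rose in heated shoots at every time. Heated shoots, at the 5 times in order, had 962.27, 2591.47, 9709.6, 3304.74 and 16.31 FPKM of it, against 0.3, 0.41, 2.19, 0.9 and 0.56 FPKM in the controls at the same times. Every heated group lay above every control group, the 10 h group included. Its log2 ratio was 9.53 at the end of the bath, 11.57 at 1 h and 3.47 at the last time, and it was called higher at all 5 times in the authors' deposited table, each time with q printed as 0. Among the 24219 records, which it entered only through its heated values, its log2 ratio ranked 8, 4 and 9 at these times. The plain fold of 4434 at 1 h rests on a control value of 2.19 FPKM, the highest of its 5 control values.

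OS08G0500700, also listed as cytosolic, was the most abundant member in control shoots and gave the highest heated level of the family. Its heated groups, from 10 min to 10 h, had 1493.96, 3806.45, 10489.1, 4118.74 and 54.19 FPKM, against 46.87, 35.42, 49.03, 60.75 and 79.34 FPKM in the controls. The heated groups were far above all controls up to 2 h, and at 10 h the heated group was below its control. Expressed as a fold, heated shoots had 31.9, 107, 214 and 67.8 times the control level at the 4 times up to 2 h. In the authors' deposited table it was called higher at 10 min (q printed as 0) and at 20 min (q = 0.01). It was not called at 1 h or at 2 h in the authors' deposited table, where q was printed as 0.05 and 0.11 although the log2 ratios were 7.71 and 6.06. At 10 h its log2 ratio was -0.54 (q = 0.31 in the authors' deposited table).

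Of the members whose IDs lie close together on the OS09 series, OS09G0482100 and OS09G0482600 changed in near parallel at levels that differed widely. OS09G0482100 had 99.85, 314.28, 741.14, 265.49 and 39.37 FPKM in heated shoots, in time order, against 21.31, 20.01, 25.86, 32.2 and 39.9 FPKM in control shoots. OS09G0482600 had 9.09, 28.35, 49.86, 22.92 and 2.35 FPKM in heated shoots at these times, against 2.07, 1.5, 1.89, 2.94 and 2.86 FPKM in control shoots. For both members all heated groups up to 2 h exceeded all controls, and the 10 h groups had come together. Fold changes were alike up to 2 h, with 4.69, 15.7, 28.7 and 8.25 for OS09G0482100 and 4.39, 18.9, 26.4 and 7.8 for OS09G0482600 at the same 4 times. Both were called higher at these 4 times, with q printed as 0, and in neither direction at 10 h (q = 0.97 and 0.71), in the authors' deposited table. Across the 10 groups, which share the heat response, their log2(FPKM + 1) values had a Pearson's r of 0.994. OS09G0482400, whose ID lies between them, was listed at 0 throughout, as were all 5 IDs between these 2 members. A listed 0 can be a failed estimate, and the sources used here do not say how reads of near-identical copies were assigned; the levels of all OS09 members are uncertain to that extent.

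The organellar members were first called at 20 min and at 1 h. OS12G0514500 had 35.93, 69.57, 382.65, 246.8 and 31.78 FPKM in heated shoots, in time order, against 22.44, 17.95, 17.36, 22.32 and 30.76 FPKM in controls. Its 1 h and 2 h heated groups stood well above all others, while the 10 min and 10 h heated groups were only just above the highest control. It was not called at 10 min (log2 ratio 0.66, q = 0.1) and was called higher at 20 min (1.90), 1 h (4.39) and 2 h (3.41) by the authors' deposited table, where all 3 q values were printed as 0.

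OS08G0487800, the other organellar member, had the lowest log2 ratio of the 6 members compared at 1 h, 2.50. Its heated groups had 32.97, 56.09, 132.28, 115.76 and 59.19 FPKM, in time order, against 26.22, 29.64, 22.5, 33.71 and 36.43 FPKM in controls. The 10 min heated group fell inside the range of the controls, and the other heated groups lay above it. It was called higher at 1 h (5.88-fold) and 2 h (3.43-fold), with q printed as 0, and not at 10 min (q = 0.71), 20 min (q = 0.1) or 10 h (q = 0.21), in the authors' deposited table. At 10 h heated shoots still had 1.62 times the FPKM of controls, a difference that was not called in the authors' deposited table.

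**Figure D1:**
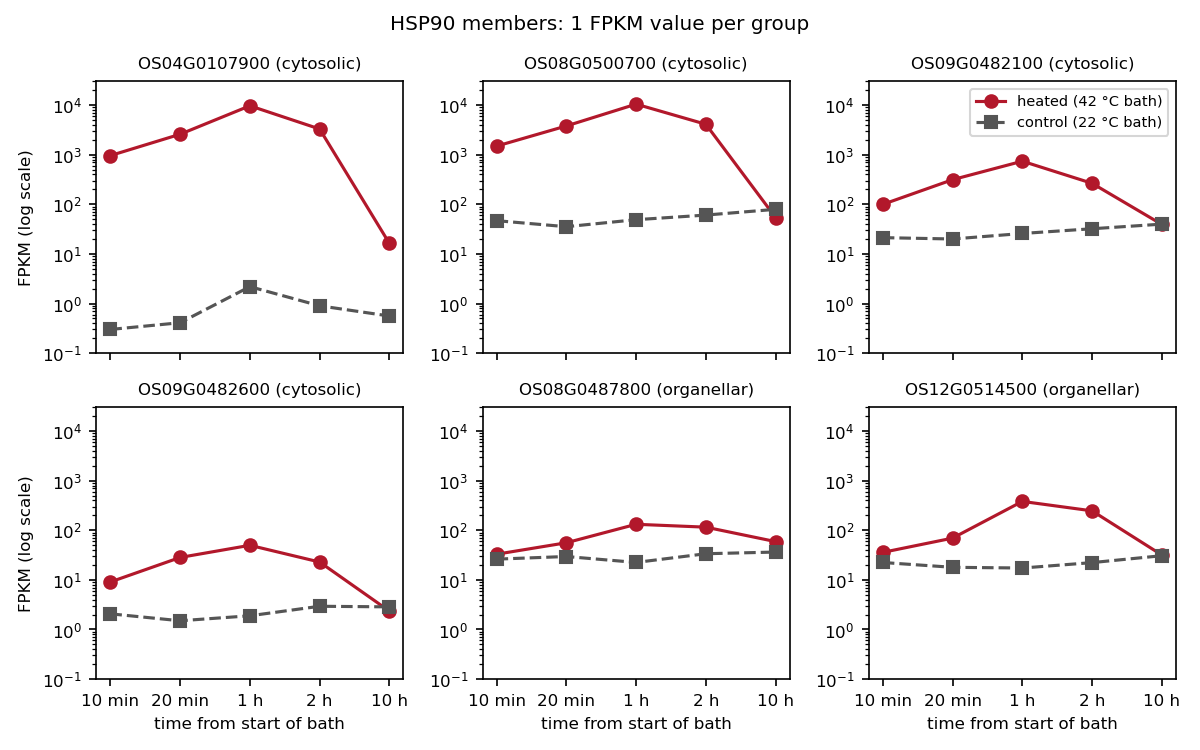
FPKM (log scale) of the 6 HSP90 members above 0, by time from the start of the bath (evenly spaced, not to scale), with heated groups as circles and control groups as squares; each point is the authors' single value for a group, so there are no error bars. All 6 heated lines peak at 1 h, where they run from 49.86 FPKM for OS09G0482600 to 10489.1 FPKM for OS08G0500700.

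Counted over the family, 4 of the 7 members were called higher at 10 min by the authors' deposited table, where 1.49% of all records compared were. At 20 min the authors' deposited table called 5 higher, beside 3.22% of all records. At 1 h and at 2 h the count was again 5 in the authors' deposited table, beside 10.9% and 10.8% of all records, but the members differed: OS08G0487800 was now called and OS08G0500700 was not. Its q at 1 h was printed as 0.05 in the authors' deposited table and may be rounded from a smaller value; with q printed as 0.05 or less the count at 1 h would be 6. At 10 h OS04G0107900 alone was called, beside 2.65% of all records higher by the authors' deposited table. The authors' deposited table called 0 members lower at any time, while 2.16%, 5.82%, 8.12%, 6.35% and 1.64% of all records were lower at the 5 times in order. For the 6 members compared, of which OS04G0107900 entered only through its heated values, the log2 ratios had medians of 1.95, 3.73, 4.59, 3.21 and 0.01. Over all records the median lay between -0.06 and 0.02 at these times. OS04G0107900, OS09G0482100 and OS09G0482600 had a higher call at every time up to 2 h by the authors' deposited table, as did 0.739% of all records.

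**Figure D2:**
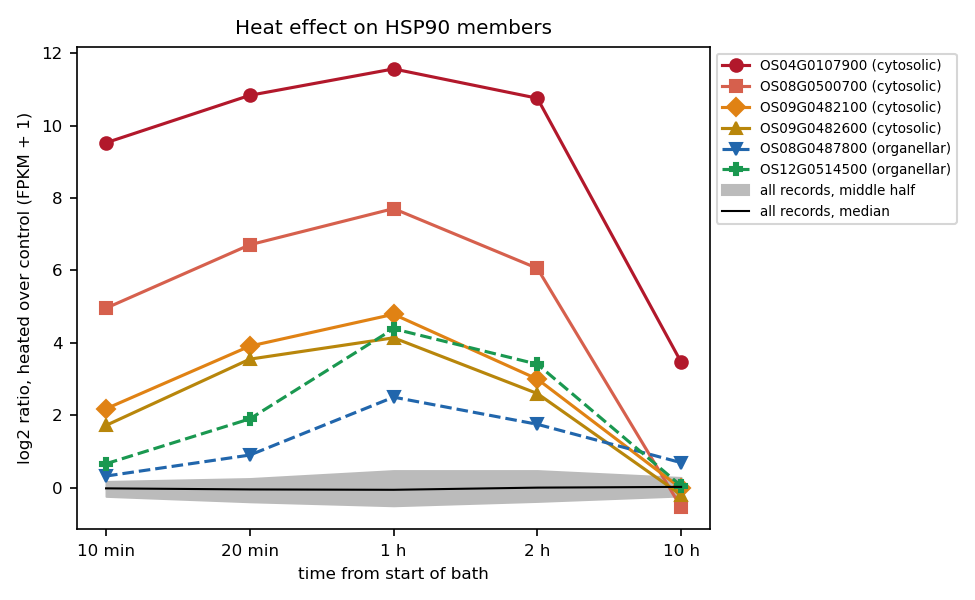
Log2 ratio of heated over control shoots on the log2(FPKM + 1) scale for each of the 6 HSP90 members compared, by time (evenly spaced, not to scale), with solid lines for cytosolic and dashed lines for organellar members. The grey band holds the ratios between the lower and upper quartile of all 24219 records; at 1 h the members run from 2.50 to 11.57 while that band runs from -0.50 to 0.47.

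All 6 members compared had their highest heated value at 1 h, the time of the highest heated value in 20.8% of all records. Changes of 2-fold between times were counted on the log2(FPKM + 1) scale, for members and for all records alike. Between 10 and 20 min, the start of the recovery, the 4 cytosolic members compared increased at least 2-fold in heated shoots. Of all records, 2.09% did so. The 2 organellar members stayed under that limit, OS12G0514500 only just, with plain ratios of 1.94 for it and 1.7 for OS08G0487800. The lowest cytosolic ratio was 2.55, in OS08G0500700. Between 20 min and 1 h 5 of the 6 increased at least 2-fold, beside 14.1% of all records, and the exception was OS09G0482600. Between 1 and 2 h the same 4 cytosolic members decreased at least 2-fold, as did 9.99% of all records, and neither organellar member did. Between 2 and 10 h 5 of the 6 decreased at least 2-fold, beside 16.5% of all records, with OS08G0487800 the exception. Its plain ratio was 0.511, just short of that limit. These differences between times rest on single group values and have no test.

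Cytosolic and organellar members also differed in the shape of their time course once the control level was taken off. The excess, heated minus control FPKM, was set to 100% at 1 h for each member. At 10 min it had reached 9.91% to 14.6% of that value in the 4 cytosolic members compared, and 6.15% and 3.69% in the organellar OS08G0487800 and OS12G0514500. At 20 min it was 26.7% for OS04G0107900, 36.1% for OS08G0500700, 41.1% for OS09G0482100 and 56% for OS09G0482600, against 24.1% and 14.1% for the organellar members. The order was turned round at 2 h, when 32.6% to 41.7% of the 1 h excess was left in the cytosolic members and 74.7% in OS08G0487800 and 61.5% in OS12G0514500. At 10 min, 20 min and 2 h the ranges of the classes did not overlap, with 4 and 2 members and no test. Over the 2641 records called higher at 1 h in the authors' deposited table, the median excess was 3.28%, 5.03% and 45.6% of its 1 h value at these 3 times. Their quartiles were -2.98% and 12.9% at 10 min, with OS08G0500700 and OS09G0482600 above them and the other members compared between. At 20 min the quartiles were -8.7% and 21.6%, and the 4 cytosolic members and OS08G0487800 lay above them while OS12G0514500 lay between. At 2 h the quartiles were 21.1% and 84.6%, with all 6 members in between. Among the 652 of these records that were at least 8-fold higher at 1 h, the quartiles were 0.87% and 28.7% at 20 min and 20.6% and 59.8% at 2 h. At 20 min OS08G0500700, OS09G0482100 and OS09G0482600 lay above these quartiles, and OS04G0107900 and both organellar members lay between. At 2 h both organellar members lay above the quartiles, although OS08G0487800 itself was under 8-fold higher at 1 h. The cytosolic members lay between the 2 h quartiles.

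**Figure D3:**
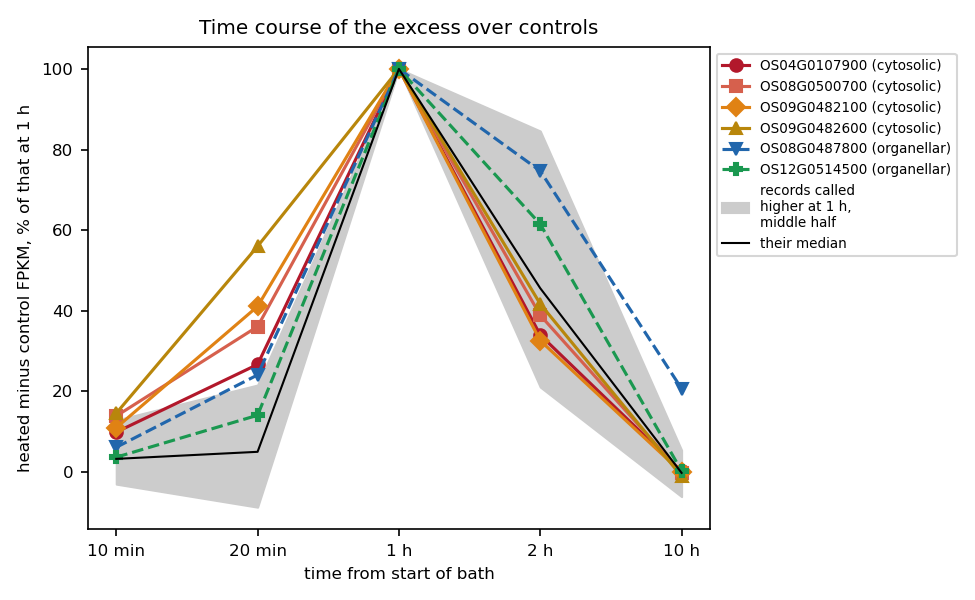
Heated minus control FPKM as a percentage of its value at 1 h for each HSP90 member compared, by time (evenly spaced, not to scale), with solid lines for cytosolic and dashed lines for organellar members; the grey band and black line give the quartiles and the median over the 2641 records called higher at 1 h. At 2 h the cytosolic members sit at 32.6% to 41.7% and the organellar ones at 61.5% and 74.7%.

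By 10 h OS09G0482100, OS09G0482600 and OS12G0514500 were back near their control levels. OS04G0107900 kept a 29.1-fold difference, at 16.31 against 0.56 FPKM. OS08G0487800, at 1.62 times its control, and OS08G0500700, at 0.683 times, lay further from their controls without a call. The excess left at 10 h was 0.162% of that at 1 h for OS04G0107900 and 20.7% for OS08G0487800. OS08G0500700, OS09G0482100 and OS09G0482600 were lower in heated than in control shoots at 10 h, with folds of 0.683, 0.987 and 0.822. None of these was called in the authors' deposited table.

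Control levels of the members also differed between times. Across the 5 control groups the highest value was 2.24 times the lowest for OS08G0500700, 1.99 times for OS09G0482100, 1.96 times for OS09G0482600, 1.77 times for OS12G0514500 and 1.62 times for OS08G0487800. For OS04G0107900 it was 7.3 times, at levels of 0.3 to 2.19 FPKM. In all 6 members the 10 h control was higher than the 10 min control, as in 52.5% of all records. The log2 differences ran from 0.26 for OS04G0107900 to 0.87 for OS09G0482100, so no member reached a 2-fold difference on that scale, which 6.08% of records did. The 10 min controls came straight from the 22 °C bath and the 10 h controls from 30 °C, so time and temperature cannot be told apart in this difference.

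The order of levels, compared per length as FPKM, changed with heat. In heated shoots at 1 h OS08G0500700 (10489.1 FPKM) and OS04G0107900 (9709.6 FPKM) were followed at a distance by OS09G0482100 (741.14), OS12G0514500 (382.65), OS08G0487800 (132.28) and OS09G0482600 (49.86). In the matching controls OS08G0500700 (49.03 FPKM) led OS09G0482100 (25.86), OS08G0487800 (22.5), OS12G0514500 (17.36), OS04G0107900 (2.19) and OS09G0482600 (1.89). Whether neighbours in these orders differ beyond their spread cannot be said without values per library. OS04G0107900 made up 36.5% of the summed FPKM of the 7 members in heated shoots at 10 min and 45.2% at 1 h, against 0.252% and 1.84% in controls. The organellar members together made up 2.62% and 2.39% in heated shoots, against 40.8% and 33.5% in controls, at the same times.

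The 7 members together took 0.312%, 0.777%, 1.83%, 1.05% and 0.0251% of all FPKM in heated shoots, in time order. In controls they took 0.0147%, 0.0129%, 0.0145%, 0.0231% and 0.0279% at these times. The ID listed as HSP90 of the endoplasmic reticulum, described below, is not in this sum. It had 734.93 FPKM in heated and 36.21 FPKM in control shoots at 1 h. The summed FPKM of all records was itself unequal, at 1175514 in heated and 819654 in control shoots at 1 h.

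Genes that work with HSP90 were read from 4 lists of IDs written down from background knowledge and not checked against an annotation. The list of co-chaperones (HOP, AHA1, SGT1, RAR1 and FKBP immunophilins) held 6 IDs, all of them compared, of which the authors' deposited table called 5, 5, 6, 5 and 0 higher at the 5 times in order, beside 1.49%, 3.22%, 10.9%, 10.8% and 2.65% of all records; 0 were called lower. The same shares of all records apply to the lists that follow. Its median was 1483.51 FPKM in heated shoots at 1 h, against 18.30 FPKM in controls. Its highest log2 ratio at 1 h was 10.58, at 3448.94 FPKM in heated and 1.25 FPKM in control shoots, and its lowest was 1.00, at 22.98 against 11.02 FPKM. The median log2 ratio of the list was 2.49, 4.27, 5.82, 3.87 and -0.05 at the 5 times. For the members called at 1 h, a median of 41.3% of the 1 h excess was left at 2 h, with a range of 17.7% to 48.7%.

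The single ID listed as HSP90 of the endoplasmic reticulum had 72.1, 75.11, 734.93, 674.4 and 37.15 FPKM in heated shoots, in time order, against 46.46, 34.94, 36.21, 71.64 and 54.45 FPKM in controls. The authors' deposited table called it higher at 20 min, 1 h and 2 h, with q printed as 0. Its excess at 2 h was 86.3% of that at 1 h, above the value of every member of the family compared.

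The list for HSP70, which hands clients to cytosolic HSP90, was not split by compartment. It held 11 IDs, with 10 compared. The authors' deposited table called 5, 7, 8, 6 and 0 of these higher at the 5 times in order, and 1 lower at 10 h, beside 1.64% of all records lower. The median log2 ratio was 0.84 at 10 min and 4.44 at 1 h. The highest log2 ratio at 1 h was 10.24, at 16947.5 FPKM in heated and 13.01 FPKM in control shoots. In the 8 IDs called at 1 h, a median of 46.6% of the 1 h excess was left at 2 h. The range was 30.9% to 88%. Heat stress transcription factors, which bind promoters of chaperone genes, were a list of 24 IDs with 20 compared, 3 of them only through their heated values (a mean under 1 FPKM in controls). Here 8, 10, 14, 8 and 0 were higher and 0 lower by the calls of that table, the authors' deposited table. The list's median log2 ratio was 0.47 at the end of the bath, 2.22 at 1 h and 0.63 at 2 h, and 20.5% of the 1 h excess was left at 2 h in the median of the 14 called at 1 h.

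**Figure D4:**
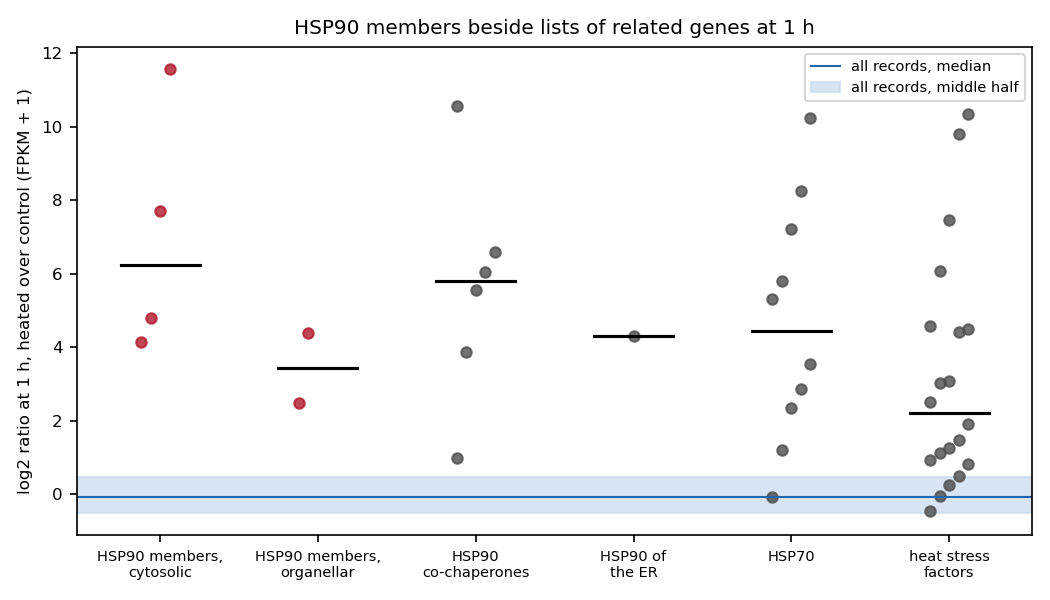
Log2 ratio of heated over control shoots at 1 h on the log2(FPKM + 1) scale, 1 point per gene ID compared, for the HSP90 members (red) and for the lists of related genes (grey), with a black bar at each median. The blue line and band are the median and the quartiles of all 24219 records. The co-chaperone list has a median of 5.82 and the HSP70 list, not split by compartment, one of 4.44. The medians are 6.25 for the 4 cytosolic and 3.44 for the 2 organellar members compared.

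Profiles across the 10 groups were alike within a class. Pearson's r of log2(FPKM + 1) was 0.954 to 0.994 among the cytosolic members compared and 0.95 between the organellar ones, and 0.780 to 0.930 between the classes; the points share the heat treatment, so these values describe and have no test. Among 10062 records that averaged 10 FPKM or more and held no member ID, OS02G0181900 came closest to the mean profile of the cytosolic members (r = 0.997 over 10 groups), with 2546.85 FPKM in heated and 2.7 FPKM in control shoots at 1 h. OS09G0315700 came closest to that of the organellar members (r = 0.987), with 163.12 FPKM in heated and 10.34 FPKM in control shoots at 1 h. An r of at least 0.95 was reached by 107 of these records for the cytosolic profile and by 90 for the organellar one.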

How the data were processed

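The data are FPKM values deposited by the authors, 1 column per group, with the 2 libraries of each group already combined (20 libraries, 10 groups). Per the submitters' processing notes, TopHat2, Cufflinks and cutadapt were used (no versions), with build IRGSP-1.0. Per the file headers the authors also deposited a log2 fold change per time, treated here as a score because it holds values without a finite ratio, and a q-value; the sources used here do not say which test gave it.

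The table has 48683 rows. Identical rows were merged and rows at 0 in all groups left out, which gave 42704 records. Another 106 were removed, in which the authors' log2 value lay over 0.1 away from the FPKM ratio with both FPKM values at 1 or more. A mean of at least 1 FPKM left 24219 records. For each gene ID the row of highest mean was used. No model was fitted and no p-value computed, since no value per library was used; calls are those of the authors' q-value. Analyses used Python 3.11.15 with pandas 2.3.3 and numpy 2.4.6, and the counting of calls was tested on simulated data.

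The members and lists were chosen with earlier results of these data known. The rule for named genes covered all 7 members and the records most alike in profile, of which 1 per class is printed; list members are given by value only. RefSeq gene names (assembly ASM3414082v1) could be paired with 0 of the IDs, and sequences were not used here. The alternatives tried were rescaling by median ratios, summed rows, other limits on q, a pseudocount of 0.1, and filters of none or 5 FPKM.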

Additional observations from a re-analysis of the deposited data

Results flagged for a closer look

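A weak signal appeared in rows that the comparisons did not use. OS04G0107900 has a second row in the table, with up to 0.43 FPKM in heated shoots while it was listed at 0 in every control group; its q was printed as 0 at 20 min and at 1 h in the authors' deposited table. OS12G0514500 also has one, with up to 2.83 FPKM in heated shoots and up to 0.11 FPKM in controls; in the authors' deposited table it was called higher at 10 min, at 0.46 FPKM in heated shoots and listed at 0 in controls (q = 0.01), and not at 1 h, where it was highest (q = 0.16). Both were far below the rows reported above.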

How the results depend on the processing

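All 30 member values (6 members at 5 times) kept their direction with rescaling by median ratios and with summed rows (with the q of the row used). They also did so with a pseudocount of 0.1, no filter and a mean of at least 5 FPKM. A pseudocount or a filter cannot change the direction of a member value, so these settings do not test it. The q values were not recomputed, so only other limits on q could move a value across the threshold. With q printed as 0.01 or less, all 30 stayed on their side of it. Rescaling moved the median log2 ratio of all records by at most 0.07. With q printed as 0.05 or less, an alternative chosen after seeing the data, OS08G0500700 at 1 h (log2 ratio 7.71) became called. Counts on the lists stayed within 1.5 times: with q printed as 0.01 or less, co-chaperones called higher numbered 4 in place of 5 at 10 min, HSP70 4 in place of 5 at 10 min and 7 in place of 8 at 1 h, and heat stress transcription factors 8 in place of 10 at 20 min and 13 in place of 14 at 1 h. With a mean of at least 5 FPKM the last list had 9 and 13 at these times, and with no filter HSP70 had 7 in place of 6 at 2 h. Without the 20 rows of highest FPKM, which hold the most abundant members, the family's share was 0.138% in heated shoots at 1 h and 0.0975% at 2 h; the other shares stayed within 1.5 times. Leaving out a library was not run, since the values combine both libraries. No paired analysis was possible because the columns carry no replicate number. Depth per library is unknown, so no floor can be set for low values such as those of OS04G0107900 in controls.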

Other observations

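Rows beside the members in ID order were looked at after the values had been seen. Of 34 distinct IDs within 3 steps of a member, 20 had a mean of at least 1 FPKM, and 3 of these were called higher and 0 lower at 1 h in the authors' deposited table, beside 10.9% of all records higher and 8.12% lower. The row after OS04G0107900 had 4804.25 FPKM in heated shoots at 1 h and was listed at 0 in controls (q = 0.62 in the authors' deposited table). The row before OS08G0500700 had 498.3 FPKM in heated and 8.27 FPKM in control shoots, and the row after it 354.39 and 7.16 FPKM. An increase of at least 8-fold on the log2(FPKM + 1) scale was seen in 3 of the 20, and in 2.55% of all records. Whether these rows share reads with the members was not tested.

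The missing call of OS08G0500700 at 2 h was not the only one of its kind. Of 25 records with at least 1000 FPKM in heated shoots and at least 16 times the control level at 2 h, the authors' deposited table called 20 higher. At 1 h 51 of 57 such records were called in the authors' deposited table. Missing calls also occurred among records at least 16-fold higher with 10 to 1000 FPKM in heated shoots and at least 1 FPKM in controls. Of these, 105 of 112 were called at 2 h and 159 of 182 at 1 h. Why calls are missing was not tested.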
